A study of Mus musculus with 2 samples.

Results

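The genes described here are 8 mouse genes of Fc gamma receptor signalling: the receptors Fcgr1, Fcgr2b, Fcgr3 and Fcgr4, the shared signalling chain Fcer1g, the kinase Syk, and the phosphatases Inpp5d (SHIP1) and Ptpn6 (SHP-1). They were chosen by gene name, and each had to carry at least 1 called nascent transcript in both libraries, so their detection is not itself a result. All 8 met this, out of 8879 genes with a value in both libraries and 11054 genes named in either. The assay was global run-on sequencing (GRO-seq) of nascent RNA, in which engaged RNA polymerases in isolated nuclei extend their transcripts with a bromine-tagged nucleotide and the tagged RNA is sequenced. The cells were wild-type bone marrow-derived macrophages (BMDMs) from mice 8 to 12 weeks old, grown for 6 days in supernatant of L929 cells, a fibroblast line that supplies the growth factor M-CSF. The control group received no interleukin-4 (IL-4), and the IL-4 group received it at 20 ng/ml for 1 hr. Each group was 1 library, made from about 100 ng of run-on RNA pooled from duplicate reactions, so n = 1 per group, no value has a replicate error, and no test between conditions was possible.

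Fc gamma receptors bind the constant part of IgG and thereby let macrophages take up antibody-coated particles and immune complexes. Fcgr1, Fcgr3 and Fcgr4 are activating receptors that signal through the ITAM motif of the chain encoded by Fcer1g, which recruits Syk. Fcgr2b is the inhibitory receptor of the family in mice, and its ITIM motif recruits the lipid phosphatase SHIP1, while SHP-1 is a tyrosine phosphatase recruited by many other ITIM receptors. IL-4 is a cytokine that signals through the transcription factor STAT6 and drives the alternative form of macrophage polarization.

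The value in the files is a score per called transcript, deposited to 1 decimal. Whether it was scaled to sequencing depth or to transcript length is not given in the sources used here, and the depth of each library is unknown. The control library held 43122 transcripts over 10.8 Mb with a median score of 0.3, and the IL-4 library held 51365 transcripts over 18.5 Mb with a median score of 0.2. Ratios of IL-4 over control were therefore centred on the median gene, which lay at -0.38 on the log2 scale for the highest score of a gene. Each ratio is given with the range that the rounding of the scores allows, which is not a replicate error. A gene is called higher or lower where the centred ratio was at least 2-fold.

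Macrophage identity was checked with 8 marker genes, of which all 8 had transcripts in both libraries. Their highest scores summed to 20.3 in the control and 18.4 after IL-4, with Csf1r at 5.6 and 4.6 and Cd68 at 5.8 and 7.3, and none was called by highest score. By score times length per kb of gene, a measure described below, 1 of the 8 was called lower, where 16.8% of all genes were. This was Cd14, at 165 in the control and 69.1 after IL-4 (-1.38, range -2.31 to -0.72). Among the B cell markers, Cd79a had a highest score of 0.4 in both libraries, and Ms4a1 and Pax5 had no transcript in either. The 4 markers of T and NK cells, 4 of mast cells and basophils, 3 of dendritic cells and 4 of fibroblasts had none in either library. Of the 6 neutrophil markers 2 had values in both libraries, S100a8 at 0.5 and 0.3 and Csf3r at 3.9 and 9.4, and the list summed to 5 in the control and 9.9 after IL-4. Csf3r, the receptor of the growth factor G-CSF, is also made by monocytes and macrophages, and its part in the results below was not tested. In such bulk libraries fewer cells of a type and less RNA per cell cannot be told apart.

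The sequences just upstream of the receptor start sites are shown because at Fcgr2b, Fcgr1 and Fcer1g a called transcript began within 26 bases of the RefSeq start in both libraries, while the other 2 illustrate the motif matches. Each run is the 250 bases before the start, 5′ to 3′ on the strand of the gene, from RefSeq on build GRCm38.p6. They lie at chr1:170976072-170976321 (Fcgr2b, minus strand), chr3:96293970-96294219 (Fcgr1, minus), chr1:171234350-171234599 (Fcer1g, minus), chr1:171059395-171059644 (Fcgr3, minus) and chr1:87620062-87620311 (Inpp5d, plus). Capitals mark matches, on either strand, to 3 of the searched motifs: GAGGAA, the core letters of sites for the myeloid factor PU.1, and TTCNNNNGAA and TTCNNNGAA, the 2 spacings of the palindrome that STAT factors bind.
Fcgr2b: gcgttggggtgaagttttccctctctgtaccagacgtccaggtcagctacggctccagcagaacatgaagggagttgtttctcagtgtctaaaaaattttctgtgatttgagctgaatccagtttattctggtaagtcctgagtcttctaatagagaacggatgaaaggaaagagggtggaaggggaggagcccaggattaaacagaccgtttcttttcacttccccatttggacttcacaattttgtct
Fcgr1: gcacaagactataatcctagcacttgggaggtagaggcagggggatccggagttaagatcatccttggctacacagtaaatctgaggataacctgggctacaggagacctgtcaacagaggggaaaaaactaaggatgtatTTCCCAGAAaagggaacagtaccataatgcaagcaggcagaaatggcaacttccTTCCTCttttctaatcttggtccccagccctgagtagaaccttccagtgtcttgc
Fcer1g: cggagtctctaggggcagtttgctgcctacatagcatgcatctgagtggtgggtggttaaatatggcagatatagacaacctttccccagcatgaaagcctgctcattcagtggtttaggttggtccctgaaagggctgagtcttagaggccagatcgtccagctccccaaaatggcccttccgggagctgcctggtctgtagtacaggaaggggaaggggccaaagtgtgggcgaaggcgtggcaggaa
Fcgr3: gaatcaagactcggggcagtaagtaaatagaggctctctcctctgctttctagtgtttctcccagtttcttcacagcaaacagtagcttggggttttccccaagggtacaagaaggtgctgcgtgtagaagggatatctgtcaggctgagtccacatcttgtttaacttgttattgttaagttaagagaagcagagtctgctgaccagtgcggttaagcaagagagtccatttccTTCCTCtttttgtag
Inpp5d: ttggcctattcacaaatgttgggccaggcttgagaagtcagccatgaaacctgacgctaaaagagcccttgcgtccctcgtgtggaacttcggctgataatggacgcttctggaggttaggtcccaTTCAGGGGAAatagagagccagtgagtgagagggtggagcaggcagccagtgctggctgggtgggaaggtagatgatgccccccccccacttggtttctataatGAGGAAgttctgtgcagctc

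The start sites of Fcgr1, Fcgr3, Fcgr4, Inpp5d and the second start of Syk had a GAGGAA match, and those of Fcgr2b, Fcer1g, Ptpn6 and the first start of Syk had none. The matches lay 55 bases upstream of the Fcgr1 start, 15 at Fcgr3, 22 at Fcgr4, 20 at Inpp5d and 9 at the second Syk start. Of all 32851 RefSeq promoter windows of this length, 23.3% held GAGGAA. TTCNNNNGAA was found in the window of Inpp5d, 124 bases upstream, and in 5.85% of all windows. TTCNNNGAA was found in that of Fcgr1, 109 bases upstream, and in 7.02% of all windows. No member window held TATAAA, the core letters of the TATA box, which 12.4% of all windows held. These are matches of letters and not measured binding, and the absence of a match says only that the letters are not in the window.

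Across the 8 genes, the inhibitory receptor gene Fcgr2b was higher after 1 hr of IL-4 and Syk was lower, while the other 6 stayed under 2-fold by their highest score. Of all 8879 genes, 8.06% were called higher and 8.62% lower by this measure, against 1 of the 8 members in each direction. Both calls held over the whole rounding range, as they did for 3.67% of all genes in the higher and 3.85% in the lower direction. The median centred log2 ratio of the members was 0.14, beside 0 for all genes by construction. Without centring, and with scaling to the summed score times length, 1 member was higher and 2 were lower, Fcgr4 joining Syk. Under these 2 settings 30.3% and 27.1% of all genes were called in either direction.

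**Figure D1:**
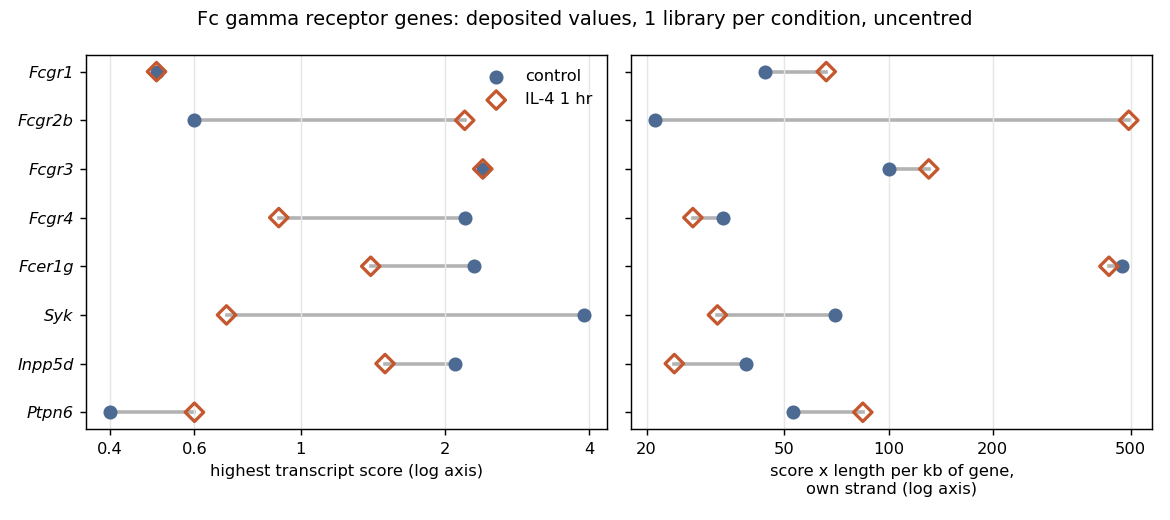
Value of each of the 8 genes in the control library (filled circles) and the IL-4 library (open diamonds), before centring, as the highest transcript score (left, log axis) and as summed score times length per kb of gene on its own strand (right, log axis). Fcgr2b has the widest gap toward higher values in both panels, at 0.6 and 2.2 on the left, and Syk has the widest toward lower values, at 3.9 and 0.7 on the left.

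A second measure, score times length summed over the transcripts on the strand of the gene and divided by the length of the gene in kb, uses every own-strand transcript. It is a level per length only if the score is a density along the transcript, which the sources used here do not state, and the order of levels below rests on that reading. It was available for 7893 genes, of which 16.8% were called higher and 16.8% lower. By this measure Fcgr2b was again the only member called higher and Syk the only one called lower, and the call of Syk did not hold over its whole rounding range. The median over the members was 0.00 on the centred log2 scale.

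On that level per kb, the control order was Fcer1g (474), Fcgr3 (101), Syk (70.2), Ptpn6 (53.0), Fcgr1 (43.9), Inpp5d (38.7), Fcgr4 (33.2) and Fcgr2b (21.2). The rounding ranges of Ptpn6 and Fcgr1, of Fcgr1 and Inpp5d, and of Inpp5d and Fcgr4 overlapped, and Fcgr2b lay below all the others. After IL-4 the order was Fcgr2b (494), Fcer1g (433), Fcgr3 (131), Ptpn6 (84.2), Fcgr1 (66.1), Syk (32.0), Fcgr4 (27.2) and Inpp5d (24.0). Fcgr2b had thus passed from the last to the first place, with a rounding range that overlapped that of Fcer1g. Ptpn6 and Fcgr1 overlapped each other, as did Syk and Fcgr4, and Fcgr4 and Inpp5d.

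**Figure D2:**
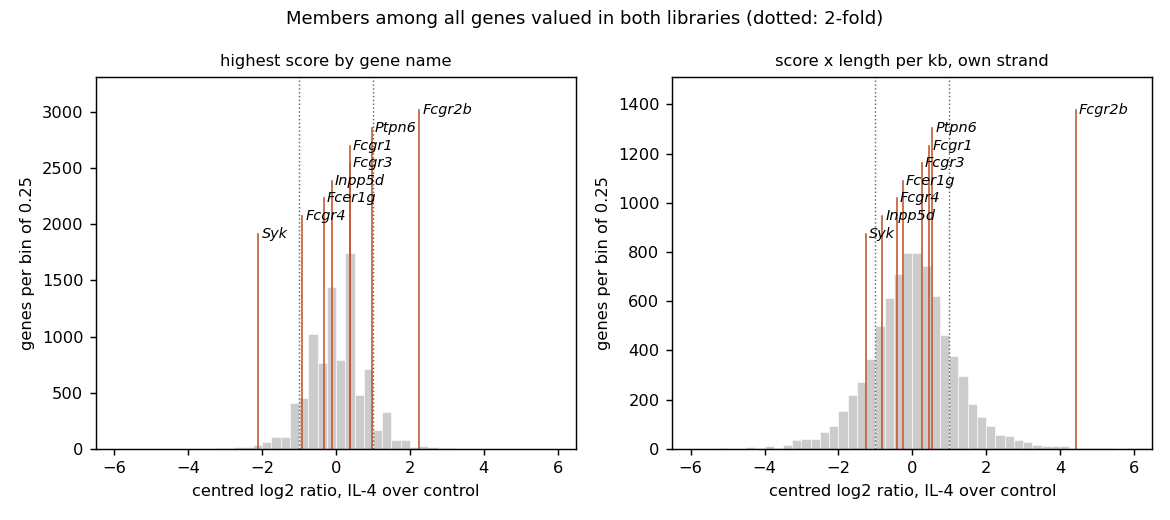
Number of genes per bin of 0.25 in the centred log2 ratio of IL-4 over control, by highest score (left, 8879 genes) and by score times length per kb (right, 7893 genes). Vertical lines mark the 8 members and dotted lines 2-fold in each direction, and Fcgr2b lies far to the right in both panels, at 2.25 and 4.42.

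Fcgr2b, the inhibitory receptor gene, lies on the minus strand of chromosome 1 (chr1:170958617-170976547, mm10, ENSMUSG00000026656.15). Its highest score was 0.6 in the control and 2.2 after IL-4. After centring this was a log2 ratio of 2.25, or 4.77-fold, and rounding allows 2.10 to 2.41. The ratio was at percentile 99.5 of all genes. By score times length its level was 21.2 per kb in the control and 494 after IL-4, which centred gives 4.42 on the log2 scale (4.08 to 4.80), or 21.4-fold, whereas plain sums of the scores gave 2.54. The called transcripts of the gene were both higher in score and longer after IL-4. The gene's own strand held 8 transcripts over 1367 bp in the control and 17 over 12116 bp after IL-4, which is 7.62% and 67.6% of the gene. Covered length was 8.86 times as large after IL-4, against a median of 1.39 over all genes with 10th and 90th percentiles of 0.581 and 3.60, and against 1.71 for the total covered length of the libraries. The longest transcript was 281 bp in the control and 2227 bp after IL-4, and 3 IL-4 transcripts exceeded 1000 bp against none in the control.

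All 8 control transcripts of Fcgr2b had an overlapping IL-4 transcript on the same strand, and all 8 of these scored higher. From the start of the gene to its end the scores went from 0.2 to 1.2 at the start site, from 0.2 to 0.5 and from 0.4 to 1.0 in intron 1, and from 0.3 to 1.0 in a transcript that spanned exon 3 after IL-4. Further along they went from 0.2 to 0.6 and from 0.4 to 1.2 in intron 5 of the longer transcript model, from 0.6 to 2.2 at the transcript described next, and from 0.2 to 0.5 at the annotated end. The difference thus ran along the whole gene, including its start, and was not set by 1 transcript. Among all transcripts with such a counterpart, 23.0% scored higher after IL-4, 22.9% were equal and 54.1% lower. A further 9 of the 17 IL-4 transcripts in Fcgr2b overlapped no control transcript, with scores up to 0.7, where 48.1% of all IL-4 transcripts overlapped none. Another 2 lay past the annotated end with scores of 0.3 and 0.1. Divided into 3 equal parts from 5′ to 3′, the gene had levels of 16.2, 12.5 and 34.7 per kb in the control and 263, 581 and 638 after IL-4.

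**Figure D3:**
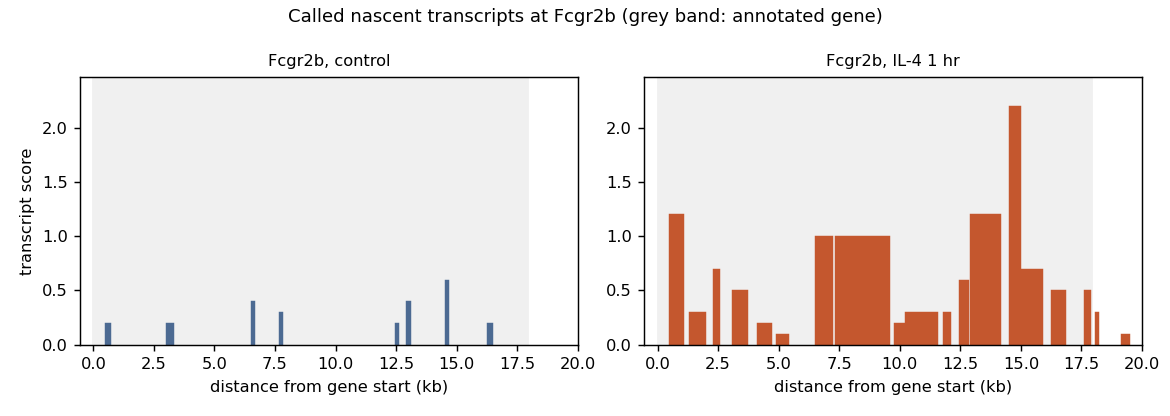
Called transcripts on the strand of Fcgr2b in the control (left) and after IL-4 (right), each drawn as a bar from its 5′ to its 3′ end (distance from the annotated gene start, kb) with its score as height, the grey band marking the gene. The 8 control bars reach 0.6 at most, and the 19 bars after IL-4 reach 2.2 and cover most of the gene.

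Both top-scoring transcripts of Fcgr2b lay in intron 5 of transcript NM_010187 and both touched repeat sequence. In the control it was 86 bp long at a GA-rich low-complexity stretch (chr1:170961926-170962011), and after IL-4 it was 457 bp long and annotated to a B2_Mm2 SINE (chr1:170961602-170962058). With all transcripts in repeat elements left out, an alternative chosen after seeing the data, the centred log2 ratio was 1.91, still at least 2-fold. Across the 11 alternatives it was between 1.79 and 4.42. At the start site itself, where the 5′ end of the transcript lay at position -1 relative to the RefSeq start in the control and -3 after IL-4, neither was annotated to a repeat. Fcgr2b and Fcgr3 share sequence: 208 of the 36-base words of the Fcgr2b mRNA, 5.93%, also occur in that of Fcgr3, and no other pair of the 8 genes shares any. How reads matching both genes were assigned is not given in the sources used here, so the split of scores between them is uncertain in such stretches, and introns were not compared.

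The activating receptor genes showed no such pattern. Fcgr1, Fcgr3 and Fcgr4 stayed under 2-fold by both measures, and so did Fcer1g. Fcgr1 and Fcgr3 had the same highest score in both libraries, and Fcgr4 and Fcer1g had lower highest scores after IL-4.

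Fcgr1, the high-affinity IgG receptor, lies on the minus strand of chromosome 3 (chr3:96282909-96293969, ENSMUSG00000015947.10). Its highest score was 0.5 in each library, which after centring is a log2 ratio of 0.38 (0.09 to 0.67), and its level per kb was 43.9 in the control and 66.1 after IL-4 (0.47). The top transcript was not the same one. In the control it lay in intron 4, and after IL-4 it began 13 bases into the gene. At that start site the score was 0.2 in the control and 0.5 after IL-4, so that with the transcript nearest the start as the value of each gene, Fcgr1 was called higher, at 1.32, and with summed scores it lay at -0.15. Of the 8 control transcripts 4 had an IL-4 counterpart, of which 2 scored higher and 2 lower. The other 4 had none, where 37.4% of all control transcripts had none. The level in the middle part of the gene was 31.2 per kb in the control and 109 after IL-4, and in the 3′ part it was 57.3 and 13.9. The 2 control transcripts nearest the 3′ end, at 0.4 and 0.2, had no counterpart.

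Fcgr3, a low-affinity activating receptor, lies in the same cluster and on the same strand as Fcgr2b (chr1:171051174-171064935, ENSMUSG00000059498.13). Its highest score was 2.4 in each library, a centred log2 ratio of 0.38 (0.32 to 0.44), and its level was 101 per kb in the control and 131 after IL-4 (0.25). In both libraries that score came from 1 transcript in intron 3 annotated to a B2_Mm2 SINE, at chr1:171056646-171057093 in the control and chr1:171056643-171057160 after IL-4. No other transcript of Fcgr3 exceeded 0.5 in the control or 0.6 after IL-4, and with repeat elements left out the centred log2 ratio was -0.09. Of 6 control transcripts 5 had a counterpart, 2 higher, 2 equal and 1 lower. The 5′ part of the annotated gene held no transcript in either library. The RefSeq start lies further in, and the nearest transcript began 159 bases past it in the control, with a score of 0.2, and 186 bases past it after IL-4, with a score of 0.3. Past the 3′ end of the gene 5 transcripts with scores of 0.1 to 0.3 were called after IL-4 and none in the control, the farthest ending 4440 bases beyond it.

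Fcgr4, an activating receptor gene between Fcgr2b and Fcgr3 on the opposite strand (chr1:171018920-171029761, plus strand, ENSMUSG00000059089.4), rested on very few transcripts. Its own strand held 2 in each library, 1 in intron 3 with scores of 0.7 in the control and 0.4 after IL-4, and 1 in the 3′ UTR with scores of 2.2 and 0.7. Both were lower after IL-4, but the second was only 62 bp long in the control and 235 bp after IL-4. By gene name the highest IL-4 score was 0.9, from a 37 bp transcript on the other strand 18137 bases past the gene start at a tRNA element, and the centred log2 ratio was -0.91 (-1.03 to -0.80). With own-strand transcripts alone it was -1.27, past 2-fold, and with transcripts of at least 100 bp alone it was 0.26. By score times length, 33.2 per kb in the control and 27.2 after IL-4, it was -0.41. No transcript began within 500 bases of its RefSeq start in either library.

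Over the interval from the end of Fcgr2b to the start of Fcgr3, which also holds Fcgr4, the minus strand had 14 transcripts over 2972 bp in the control and 31 over 17675 bp after IL-4. The plus strand had 2 in each library, over 381 and 561 bp. The gain was therefore on the strand of Fcgr2b and Fcgr3, and 17 of the 31 IL-4 transcripts lay in Fcgr2b.

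Fcer1g, the ITAM chain shared by the activating receptors (chr1:171229572-171234365, minus strand, ENSMUSG00000058715.11), had the highest level per kb of the 8 genes in the control. Its highest score was 2.3 in the control and 1.4 after IL-4 (-0.34 on the centred log2 scale, range -0.42 to -0.26), and its level was 474 per kb and 433 (-0.25). Transcripts covered 54.1% of the gene in the control and 59.3% after IL-4. All 7 control transcripts had a counterpart, of which 3 scored higher, 2 equal and 2 lower. Of the 3 higher ones, 2 overlapped the same IL-4 transcript, of 1299 bp. The 2 lower ones were the strongest of the gene, both in intron 1, from 2.3 to 1.4 and from 1.6 to 1.0. At the start site the score was nearly the same, 0.7 in the control and 0.8 after IL-4, but the transcript there was 411 bp long in the control and 1299 bp after IL-4. The level in the 5′ part of the gene was accordingly 376 per kb in the control and 727 after IL-4, and in the middle part 890 and 405. With the transcript nearest the start as the value, Fcer1g lay at 0.19. In the files its name was also carried by transcripts upstream, in introns of NM_153064, 2 in the control with scores of 0.3 and 1 after IL-4 with 0.2.

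**Figure D4:**
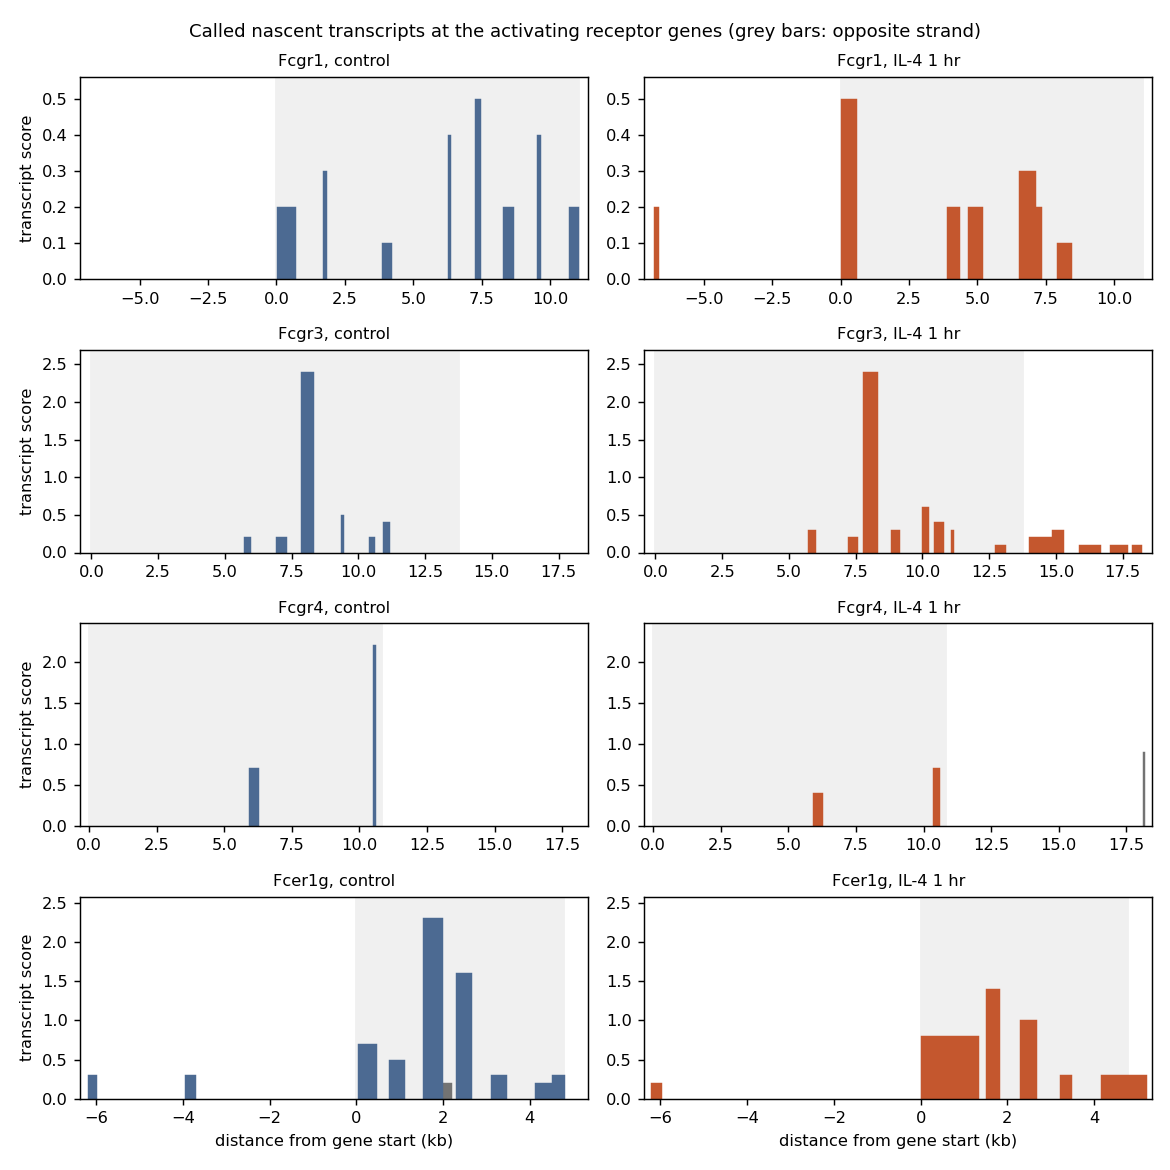
Called transcripts at the activating receptor genes Fcgr1, Fcgr3 and Fcgr4 and the signalling chain gene Fcer1g, in the control (left) and after IL-4 (right), drawn from 5′ to 3′ end (distance from gene start, kb) with the score as height, opposite-strand transcripts in dark grey. The tallest bar of Fcgr3 stands at 2.4 in both libraries, and the tallest own-strand bar of Fcgr4 at 2.2 and 0.7.

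Among the signalling partners, Syk was lower after IL-4, and the 2 phosphatase genes stayed under 2-fold by both measures. The highest score of Syk in the control came from 1 strong transcript. Of the 17 control transcripts of the gene that overlapped an IL-4 transcript, that one included, 15 scored lower after IL-4. The same IL-4 transcript could overlap more than 1 of them. The other 17 overlapped none, where 37.4% of all control transcripts overlapped none. Wherever transcripts of Inpp5d overlapped between the libraries the uncentred score was lower or equal after IL-4. Over all transcripts with such an overlap 54.1% scored lower and 22.9% equal. Ptpn6 was mixed.

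Syk, the kinase recruited by phosphorylated ITAMs (chr13:52583173-52648792, plus strand, ENSMUSG00000021457.14), had a highest score of 3.9 in the control and 0.7 after IL-4. The centred log2 ratio was -2.10 (-2.22 to -1.98), 4.29-fold lower, at percentile 0.653 of all genes. The control value came from a transcript of 169 bp in intron 9 (chr13:52637785-52637953), and the IL-4 value from one of 691 bp with the same 5′ end (chr13:52637785-52638475). The level per kb was 70.2 in the control and 32.0 after IL-4, a ratio of -1.26 (-1.75 to -0.81), 2.39-fold lower. Its own strand held 34 transcripts in the control and 24 after IL-4, but the covered length was nearly the same, 9543 and 9203 bp, and the mean score was 0.483 and 0.228. Of the 34 control transcripts 17 had a counterpart, and 15 of these scored lower after IL-4, 1 equal and 1 higher. The median difference was -0.2, beside -0.1 for all transcripts, where 54.1% of those with a counterpart scored lower. Counterparts were not 1 to 1, and the 691 bp transcript was that of both the 3.9 control transcript and another of 1.1. Examples of lower scores in Syk are 0.8 in the control and 0.2 after IL-4 in intron 1, and 0.8 and 0.4 in the 3′ UTR. All 3 parts of the gene were lower, at 70.7, 44.5 and 95.3 per kb in the control and 24.2, 21.3 and 50.7 after IL-4.

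At the first start of Syk the transcript scored 0.7 in the control and 0.3 after IL-4, beginning at positions -334 and -317 relative to the RefSeq start. At the second start a transcript was called in the control alone, at 0.1. With the transcript nearest any start as the value, the control value was this 0.1 and the IL-4 value the 0.3 of the first start, so that the ratio turned to 1.58. In the other 10 alternatives Syk was at least 2-fold lower. Opposite-strand transcription at its promoter scored 0.2 in both libraries. Past the 3′ end 2 transcripts, at 0.4 and 0.2, were called in the control and none after IL-4.

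Inpp5d, which encodes the SHIP1 phosphatase recruited by Fcgr2b (chr1:87620312-87720507, plus strand, ENSMUSG00000026288.14), had a highest score of 2.1 in the control and 1.5 after IL-4. The centred log2 ratio was -0.11 (-0.19 to -0.02), and both values came from the same place in intron 8, at 87682037. The level per kb was 38.7 in the control and 24.0 after IL-4 (-0.81, range -1.48 to -0.23). Of 41 own-strand transcripts in the control 24 had a counterpart, and 16 of these scored lower after IL-4, 8 equal and none higher. Over all control transcripts 37.4% had no counterpart, and of those with one 54.1% scored lower and 22.9% equal. The mean score of Inpp5d was 0.355 in the control and 0.176 after IL-4, while its covered length was 10920 and 13715 bp. At the start site the score was 0.4 in both libraries. In each library 12 of these transcripts carried the name of the neighbour Atg16l1, because the files name the gene with the nearest start. They include the highest own-strand score of the gene in the control, 2.4, whose counterpart after IL-4 scored 1.2. With them the highest own-strand scores were 2.4 in the control and 1.5 after IL-4, and the ratio was -0.30.

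Ptpn6, which encodes SHP-1 (chr6:124720707-124738714, minus strand, ENSMUSG00000004266.15), had a highest score of 0.4 in the control and 0.6 after IL-4. The centred log2 ratio was 0.96 (0.67 to 1.27), just under 2-fold, with a rounding range that reached past it. Its direction turned with summed scores, to -0.15, and with the transcript nearest the start, to -0.58, and own-strand transcripts gave 0.64. The level per kb was 53.0 in the control and 84.2 after IL-4 (0.55). Both top transcripts lay just downstream of the gene's second start, with a length of 282 bp in the control and 987 bp after IL-4. Of 10 control transcripts 9 had a counterpart, 2 higher, 2 equal and 5 lower, where 54.1% of all transcripts with a counterpart were lower. The covered length of Ptpn6 was 2848 bp in the control and 5567 bp after IL-4. The median length of its transcripts was 288.5 bp in the control and 482 bp after IL-4. Their median score was 0.3 and 0.2. At the first start the score was 0.3 in the control and 0.2 after IL-4. A group of 5 control and 7 IL-4 transcripts toward the 3′ end of the gene carried the name Mir200c.

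**Figure D5:**
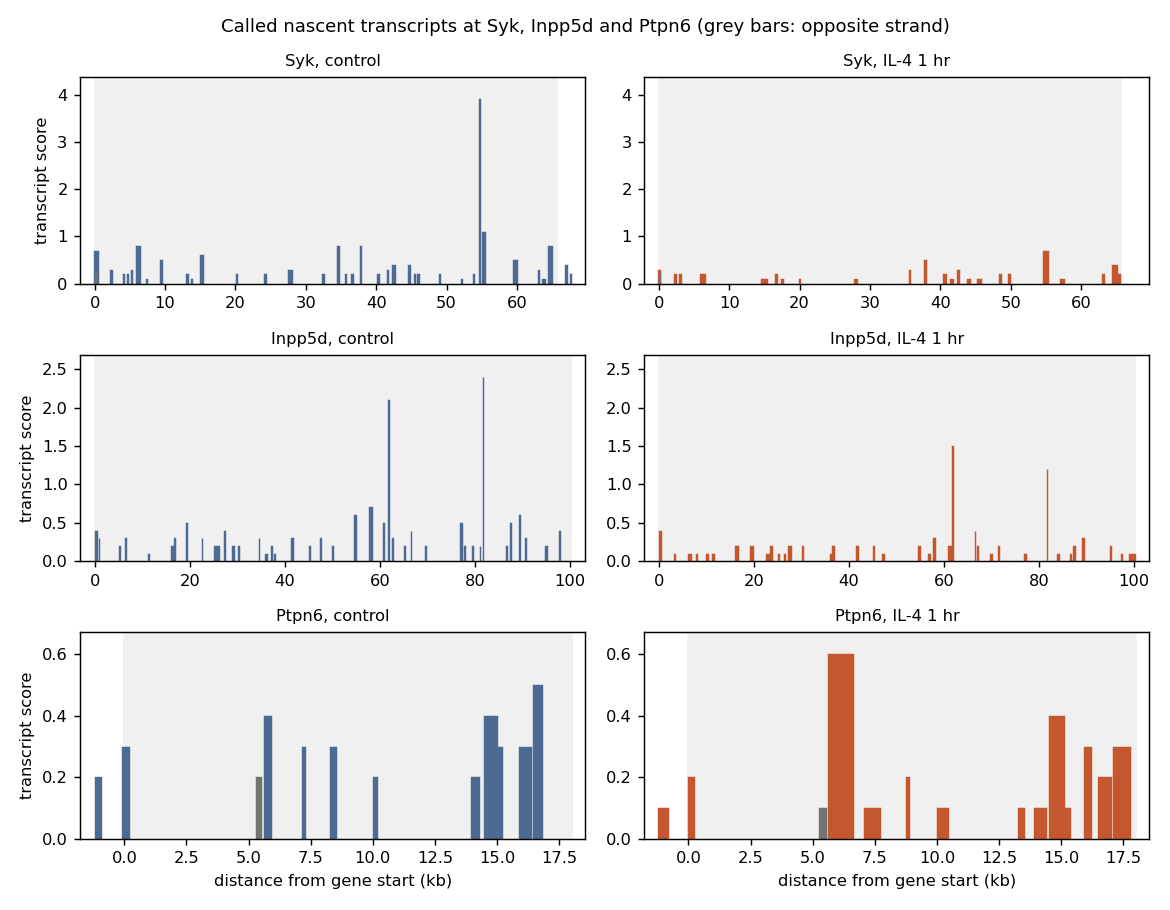
Called transcripts at Syk, Inpp5d and Ptpn6 in the control (left) and after IL-4 (right), drawn from 5′ to 3′ end (distance from gene start, kb) with the score as height, opposite-strand transcripts in dark grey. The bar of 3.9 in Syk is replaced by one of 0.7 after IL-4, the tallest bars of Inpp5d stand at 2.4 and 1.5, and those of Ptpn6 at 0.5 and 0.6.

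Nearest the 2-fold line by highest score, Ptpn6 at 0.96 and Fcgr4 at -0.91 lay just inside it, and Syk at -2.10 and Fcgr2b at 2.25 were the next members outside.

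By gene name, 39 of the 107 member transcripts in the control had no same-strand overlap with an IL-4 transcript, 36.4% (95% Wilson interval 27.9 to 45.9), beside 37.4% of all control transcripts. After IL-4, 42 of 105 overlapped no control transcript, 40% (31.1 to 49.6), beside 48.1% of all. These intervals cover counting error only, and transcripts of 1 gene are not independent. Member transcripts were 0.248% of all transcripts in the control and 0.204% after IL-4.

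Start-site transcripts could be compared at the same start in both libraries for 7 of the 8 genes, all but Fcgr4, and the direction differed from gene to gene. The score was higher after IL-4 at Fcgr2b (0.2 and 1.2), Fcgr1 (0.2 and 0.5), Fcgr3 (0.2 and 0.3) and Fcer1g (0.7 and 0.8), and equal at Inpp5d (0.4). It was lower at the first start of Ptpn6 (0.3 and 0.2) and at the first of the 2 starts of Syk (0.7 and 0.3), while just downstream of the second start of Ptpn6 it was 0.4 and 0.6. The differences of 0.1 at Fcgr3, Fcer1g and Ptpn6 equal 1 step of the rounded score. Of the 5475 RefSeq starts with a transcript in both libraries, 26.9% had a higher score after IL-4 and 46.5% a lower one.

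Beyond the 8 genes, a list of 53 other genes of Fc receptor signalling and phagocytosis was read in the same way, and 46 had a value in both libraries. Of these, 5 were called higher and 4 lower, and 37 stayed under 2-fold, with a median of 0.00 on the centred log2 scale. The 9 calls are 19.6% of the 46, beside 16.7% of all genes called in either direction. The calls held over the whole rounding range for 4 of the higher and 1 of the lower genes. Without centring the split was 2 higher and 11 lower, where 30.3% of all genes were called, and scaled to summed score times length it was 1 and 11, where 27.1% were. By score times length 12 of 45 were higher and 9 lower, where 33.6% of all genes were called.

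The 4 that held as higher were Tec, a kinase of the Tec family (0.6 in the control and 1.1 after IL-4, 1.25), Prkcd, a protein kinase C (1.1 and 1.9, 1.17), Cd300lf, an ITIM receptor (0.4 and 1.0, 1.70), and Fcrls, an Fc receptor-like gene of macrophages (0.5 and 1.0, 1.38). Their levels per kb were also at least 2-fold higher, most of all at Cd300lf with 6.31 in the control and 81.0 after IL-4. Cd300lf had 2 transcripts in the control and 14 after IL-4, and its top transcripts were 90 and 36 bp long. Valued by the transcript nearest the start, where 38.7% of all genes were called, Cd300lf was instead called lower. Tec, Prkcd and Fcrls were not called under that setting. The 1 that held as lower was Rac2, a GTPase of the actin machinery and the oxidase, at 3.6 in the control and 1.0 after IL-4 (-1.47), from the same (CA)n repeat in intron 5. Its level per kb was 169 and 94.8, under 2-fold at -0.96. The other calls, which rounding could undo, were Gsn in the higher direction and Coro1a, Inppl1 and Pirb in the lower.

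None of the 3 Src family kinase genes, which phosphorylate ITAMs, was called by highest score, and the strongest in the control, Lyn, had 1.1 and 0.6 (-0.50). Of the 7 valued adaptors and Tec kinases 1 was higher, and Gab2, the strongest, had 7.6 and 9.5 (0.70). Of the 8 genes of PI 3-kinase and phospholipase signalling 1 was higher, and Pik3ap1 had 9.7 and 5.9 (-0.34). Of the 12 genes of GTPase switches and actin 1 was higher and 2 lower, and Vav1, the exchange factor with the highest control score there, had 5.1 and 2.0 (-0.97), just under 2-fold. Of the 5 valued phosphatases other than the members 1 was lower, and Ptprc, which encodes CD45, had 7.1 and 6.3 (0.21). No ITAM-coupled gene outside the members was called, with Tyrobp, the adaptor DAP12, at 0.8 and 1.0 (0.70). Of the 5 ITIM receptors 1 was higher and 1 lower, and Sirpa, the receptor of CD47, had 8.0 and 3.3 (-0.90). Of the 3 valued immunoglobulin receptors 1 was higher, and Trim21, a cytosolic antibody receptor, had 0.8 in both libraries (0.38). These calls are all by highest score. By score times length, where 33.6% of all genes were called, 1 Src family kinase was higher and 2 were lower. Of the adaptors and Tec kinases 4 of 7 were higher, including Gab2 (1.35). Of the PI 3-kinase and phospholipase genes 4 of 8 were higher and 3 lower. Vav1 was called lower (-1.08, range -1.41 to -0.77).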

How the data were processed

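Nascent RNA from 1 control and 1 IL-4 library was analysed. The authors aligned reads to mm10 (GRCm38) with BWA, removed regions of the ENCODE artifact list, called strand-specific transcripts in each library separately with the GRO-seq mode of HOMER and annotated each to the nearest gene start. The submitters' processing notes name BWA 0.7.10, SAMtools 0.1.19 and HOMER 4.2. The authors deposited 1 score per transcript, rounded to 1 decimal, with no counts, so depth and its precision are unknown.

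From these, the highest score per gene name and the score times length on the gene's own strand (GENCODE M21, gene positions and identifiers) were computed in Python 3.11.15 with pandas 2.3.3, numpy 2.4.6 and scipy 1.17.1. The log2 ratios were centred on the median of genes valued in both libraries. Rounding ranges let each score move by 0.05. A call was a centred ratio of at least 2-fold. The code of the call rule was run on simulated data, with planted changes in high-scoring genes alone and no replicate noise. That run cannot show how the rule does at low scores, where Fcgr1, Ptpn6 and the control value of Fcgr2b lie. With 1 library per group no statistical test was run. All transcripts were kept, and counterparts overlapped by at least 1 bp on the same strand. The same transcript could be the counterpart of more than 1 transcript, and the highest overlapping score was used. Signed distances in the files were replaced by computed ones, since their sign was reversed on the minus strand. The deposited distance without its sign was used to pick the transcript nearest the start as the value of a gene. Files name Pirb as Lilrb3, Spi1 as Sfpi1, Adgre1 as Emr1 and Lilrb4a as Lilrb4.

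Genes named were all 8 members and, of the pathway list, those at least 2-fold over the rounding range and the highest control score per group. Gsn, Coro1a, Inppl1 and Pirb fall outside that rule and were named after their values were seen. The members, lists and measures were chosen with earlier results of these data known. Alternatives covered the measure per gene, centring, filters on score, length and repeats, and the fold.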

Additional observations from a re-analysis of the deposited data

How the results depend on the processing

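Fcgr2b was at least 2-fold higher in all 11 alternatives to its value and Syk at least 2-fold lower in 10 of 11. With the transcript nearest the start Syk turned to 1.58, since its value then came from different starts in the 2 libraries. The number of members past the fold was 4 of 8 at a fold of 1.5, where 44.6% of all genes passed. It was 2 or 3 under the other settings, where between 7.52% and 38.7% of all genes passed. The members' median log2 ratio was -0.20 with summed scores, 0.39 nearest the start, -0.24 without centring, -0.33 scaled to summed score times length, 0.26 with transcripts of at least 100 bp and -0.13 without repeat elements, an alternative chosen after seeing the data. The count of changed pathway genes, with the share of all genes under the same setting, was 21 of 46 nearest the start (38.7%), 21 of 45 by score times length (33.6%), 14 of 46 with at least 100 bp (19.7%), 14 of 51 with missing genes set to 0.1 (25.4%), 22 of 46 at a fold of 1.5 (44.6%) and 5 of 46 over the whole rounding range (7.52%). Where counterparts had to overlap by 50%, 47.7% of control member transcripts had none, beside 42.8% of all control transcripts. After IL-4 this was 64.8% of member transcripts, beside 64.2% of all. With scores of at least 0.3 it was 28.8% of member transcripts in the control, beside 22.5% of all. The same filter gave 28.6% after IL-4, beside 19.7% of all. For these shifts the cause was not tested. No paired analysis was possible because each group had 1 library. No library could be left out for the same reason.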
